A study of Mus musculus with 8 samples.

Results

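The cytosolic ribosomal protein genes are described here across a map of Argonaute-bound RNA from mouse forebrain. A gene was taken when its symbol, in the columns that name the 3' UTR, CDS, 5' UTR or intron under a cluster of reads, has the standard form for a ribosomal protein (Rpl or Rps with a number, an allowed suffix, or Rplp0, Rplp1, Rplp2 and Rpsa), without the Rps6k kinases. This gave 48 of the 9962 genes named in those columns, with 22 proteins of the small subunit, 24 of the large subunit and 2 of the stalk. Their clusters number 76 of 70142 in the table and hold 2266 reads. Among clusters that name a gene, they make up 0.136% of clusters and 0.152% of reads. Rps4l is a transcribed processed pseudogene in GENCODE M21, and the other 47 are protein coding there.

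The method was HITS-CLIP, in which ultraviolet light links RNA to a protein in tissue and the linked fragments are immunoprecipitated and sequenced. The Flag-Ago2 group has 5 libraries from mice with 2 alleles, Camk2a-cre and Rosa-Stopfl/fl-Flag-Ago2, in which Cre made under the promoter of Camk2a, a gene of forebrain excitatory neurons, removes a stop before a FLAG-tagged Argonaute. The control group has 3 libraries from mice with Rosa-Stopfl/fl-Flag-Ago2 but without Cre, so both groups carry the Flag-Ago2 allele. The libraries come from 3 experiments with mice aged 8 to 14 weeks, and each immunoprecipitation used a part of a single forebrain. The deposited values are a single read count per cluster for the whole study, with 0 columns for single libraries. No value below can therefore be split into Flag-Ago2 and control, none has a replicate error, and no test was made. The read count of a gene reflects both how much of its mRNA the tissue holds and how often Argonaute lay on it, and these, like fewer cells of a type against less RNA per cell, cannot be told apart.

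Ribosomal proteins are the protein part of the ribosome, which reads mRNA into protein. Their mRNAs are short and abundant, begin with a run of pyrimidines, and are translated more when the mTOR pathway is active, which ties the making of ribosomes to growth signals. In neurons they are among the mRNAs carried into axons and dendrites. Argonaute proteins carry a miRNA and bind mRNAs that pair with its seed, the bases near its 5' end. Many ribosomal protein genes also carry small nucleolar RNA (snoRNA) genes in their introns and have many processed pseudogenes, copies of the spliced mRNA that were inserted elsewhere in the genome. Both features bear on how a read from such a gene is placed and named.

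The miRNAs below are those whose seed matches were most frequent in the exonic clusters of these genes, with miR-101 and miR-29 added because the text refers to their sites. The mature sequences are from RefSeq, written 5' to 3', and capitals mark bases 2 to 8, the seed.
miR-128-3p: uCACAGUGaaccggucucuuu
miR-103-3p: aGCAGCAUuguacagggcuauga
miR-16-5p: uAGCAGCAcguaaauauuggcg
miR-9-5p: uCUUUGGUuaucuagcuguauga
miR-22-3p: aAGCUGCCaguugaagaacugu
miR-101a-3p: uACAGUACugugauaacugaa
miR-29a-3p: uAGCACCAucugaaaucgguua
The seeds of miR-103 and miR-16 share letters one base apart, as do those of miR-128 and miR-101, so 1 stretch of mRNA can match both members of a pair.

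The next sequences are stretches of mRNA with such matches, from some of the deepest coding and 3' UTR clusters of the genes and from some of those with the longest matches. They were read from GENCODE M21 transcripts on mm10, run 5' to 3' along the mRNA, and capitals mark the bases that pair with the miRNA, with an A opposite its first base where there is one.
Rpl27a and miR-128 (chr7:109520543-109520572, plus strand): caacctggataaACTGTGgacattggtcag
Rps6 and miR-128 (chr4:86855964-86855993, minus strand): ctgacagacactACTGTGcctcgtcggttg
Rpl10a and miR-128 (chr17:28329418-28329447, plus strand): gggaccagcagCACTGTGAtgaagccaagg
Rpl22 and miR-103 (chr4:152332936-152332965, plus strand): tttgagtctcacTGCTGCAtgttctgcctt
Rps6 and miR-9 (chr4:86855903-86855932, minus strand): tttttaatctctCCAAAGAagatgatgtcc
Rps27a and miR-29 (chr11:29546369-29546398, minus strand): agacttcggggTGGTGCTAagaaaaggaag
Rpl3 and miR-101 (chr15:80080983-80081012, minus strand): gctttcaccaaGTACTGTAagaaatggcag
All of these except the Rpl22 stretch, which is in the 3' UTR, lie in coding exons. A match of this kind is a string of letters under a cluster, and the table does not say which miRNA was on the Argonaute.

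Among the small subunit genes, Rps6 had the most reads. Rps6 encodes the protein that S6 kinases phosphorylate downstream of mTOR. It had 3 clusters and 187 reads. Its deepest cluster, of 116 reads at chr4:86854353-86854563 on the minus strand, is named 3' UTR in the table but lies 97 bases past the end of the gene in GENCODE M21, where that annotation has 0 genes. The other 71 reads were in coding exons, 55 of them at chr4:86855803-86856046. The reads of Rps6 were thus divided between its coding exons and a region downstream that annotations treat differently.

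Rps15, a protein of the small subunit near the decoding site, had 2 coding clusters, with 60 reads at chr10:80293617-80293772 and 47 at chr10:80293779-80293942. Rps27a, which is made as a fusion with ubiquitin, had 84 reads in coding exons, 57 at chr11:29546266-29546440 and 27 in a second cluster. Rps4x, the X-linked copy of its protein, had a single coding cluster of 61 reads at chrX:102185576-102185681. In Rps15a, 27 reads lay in the 3' UTR, 25 in CDS and 11 in an intron. Rps19, a gene mutated in Diamond-Blackfan anaemia, had 31 reads in a cluster named 5' UTR and 20 in CDS. Rps4l had 13 reads in a cluster named 5' UTR, which made these the 2 genes with a cluster assigned to that region. In GENCODE M21, however, the Rps4l cluster lies 89.9% of the way along the 943-base pseudogene transcript. Rps20 and Rps12 were mostly intronic, with 51 of 83 and 49 of 60 reads. A further 12 small subunit genes had 10 to 39 reads, from Rps24 and Rps25 at 10 to Rps9 at 39.

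Among the large subunit genes, Rpl27a stood first, with 257 reads in 1 coding cluster at chr7:109520513-109520644 on the plus strand. That cluster held 11.3% of all reads of the ribosomal protein genes and ranked 161 by reads in the whole table. Of its 132 bases, 130 are exonic. Rpl4, which lines the exit tunnel for the growing peptide, had 5 clusters, the most of any member, with 96 exonic and 43 intronic reads. Rpl3, a protein close to the site where peptide bonds form, had 69 exonic reads in 3 clusters and 24 in an intron. These genes show that many reads could come from 1 site, as in Rpl27a, or from several, as in Rpl4.

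Rpl22 and Rpl7l1 differed from most members in having all of their reads in clusters assigned to the 3' UTR. This also held for some genes with fewer reads, such as Rpl15 with 20 and Rpl35 with 19. Both Rpl22 clusters name the 5' UTR as well. Rpl22, a large subunit protein that also binds other RNAs, had 52 reads at chr4:152332924-152333037 and 41 in a second cluster. Rpl7l1, a paralog of Rpl7 with a part in ribosome assembly, had 57 at chr17:46775556-46775691 and 21 in a neighbouring cluster. Rpl37a, with 54 reads in 2 coding clusters, completed the 10 members with the most exonic reads. Rpl26 had 34 reads in CDS and 18 in the 3' UTR. Rpl31, Rpl39 and Rpl34 had 49, 47 and 27 reads and these lay in introns alone. The remaining large subunit genes had 10 to 48 reads each. Of the stalk, which recruits elongation factors to the ribosome, Rplp2 had 51 reads and Rplp0 had 36, each in 1 coding cluster.

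**Figure D1:**
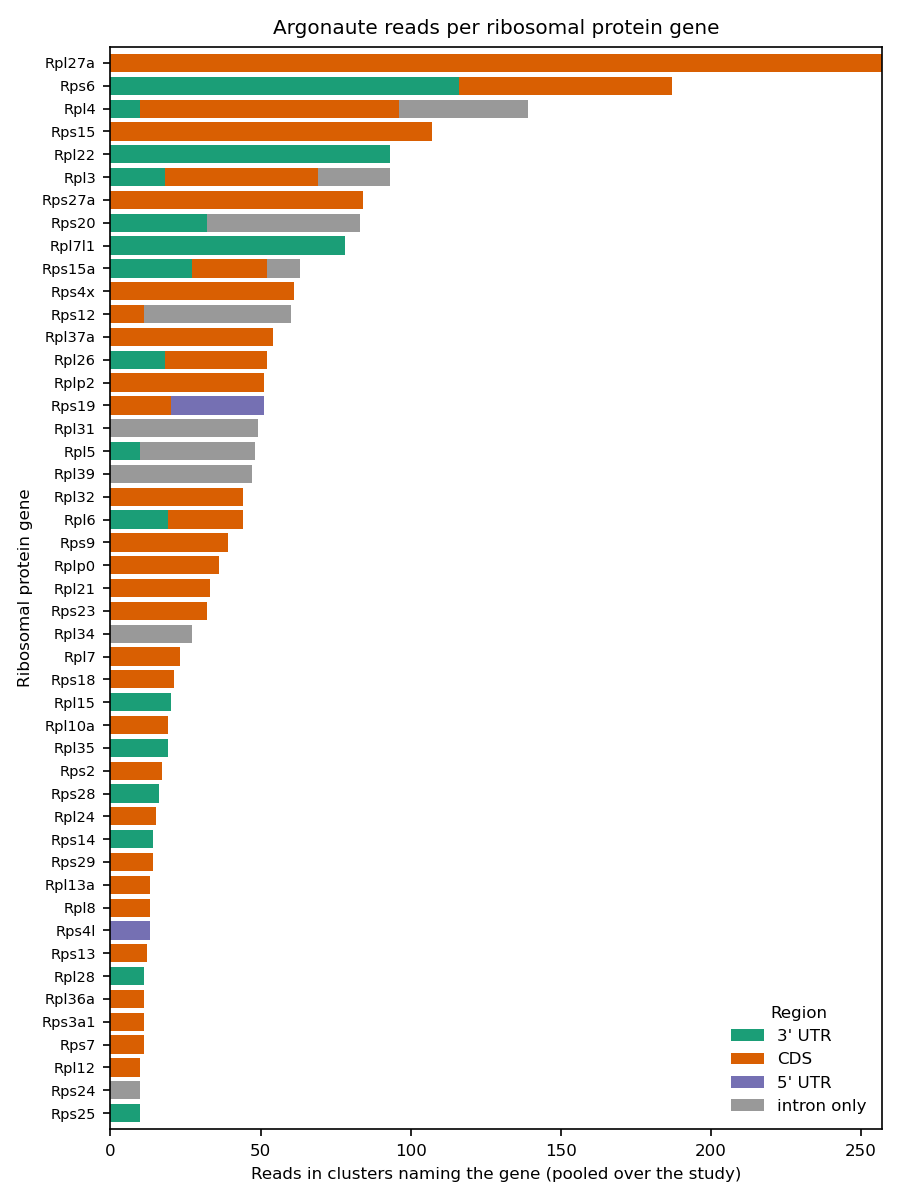
Reads in clusters that name the ribosomal protein genes reported here (horizontal axis, pooled over the study), divided by region (3' UTR, CDS, 5' UTR or intron only). Rpl27a, with 257 reads, and Rps6, with 187, lead, and most of the lower genes have a single colour.

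The 3' UTR was named for 17 members. After Rps6, Rpl22 and Rpl7l1, with 116, 93 and 78 reads, came Rps20 with 32, Rps15a with 27 and Rpl15 with 20. Rpl6 and Rpl35 each had 19, Rpl3 and Rpl26 each had 18, and 6 further genes had 10 to 16. CDS was the assigned region of clusters in 33 members, the 5' UTR in 2 and an intron in 10. A single cluster was found in 29 of 48 genes, or 60.4%, 2 clusters in 13 genes and 3 or more in 6. Of the 76 clusters, 34 held 10 to 19 reads and 2 held 100 or more, and the 10 deepest held 36.1% of the reads.

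Of the 84 protein-coding genes in GENCODE M21 that match the same rule, 37 were not named in the table, among them Rpl10, Rpl11, Rpl13, Rpl7a, Rpl9, Rps3, Rps27, Rpsa and Rplp1. Since every listed cluster has at least 10 reads, this shows only that no such cluster was listed for them. The share of annotated genes with an exonic cluster was 20 of 32 (62.5%, 95% Wilson interval 45.3 to 77.1) in the small subunit, 21 of 49 (42.9%, 30.0 to 56.7) in the large subunit and 2 of 3 in the stalk. The intervals of the subunits overlap. Over all 84 the share was 51.2% (40.7 to 61.6), against 35.7% of other protein-coding genes, many of which are not active in brain. With clusters of at least 20 reads the shares were 28.6% and 26.4%, so the gap was smaller without the shallow clusters. All such intervals cover the counting of clusters or genes only, since PCR copies are not independent molecules and neighbouring clusters of a gene are not replicates.

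The clusters lay mainly in coding sequence. A cluster that names several regions was assigned to the 3' UTR if it names one, else to CDS, else to the 5' UTR, and to an intron only if it names nothing more. CDS then took 44 of 76 clusters (57.9%, 46.7 to 68.4), against 23.2% in other genes. Introns alone took 10 (13.2%, 7.31 to 22.6), against 58.6%. The 3' UTR took 20 (26.3%, 17.7 to 37.2), against 16.6%, and the 5' UTR took 2 (2.63%, 0.725 to 9.10), against 1.60%. By reads rather than clusters, CDS held 58.7% in ribosomal protein genes and 27.4% in other genes, and introns alone held 15.4% and 51.0%. The intron difference belongs to clusters that name an intron alone: when every named region was counted, an intron was named for 80.3% of the clusters (70.0 to 87.7), against 77.2% in other genes. The introns of these genes are short: their median length is 369 bases against 1337 in other protein-coding genes, while internal exons are of like length, 113 against 124 bases. What part of the region difference goes with intron length was not tested.

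**Figure D2:**
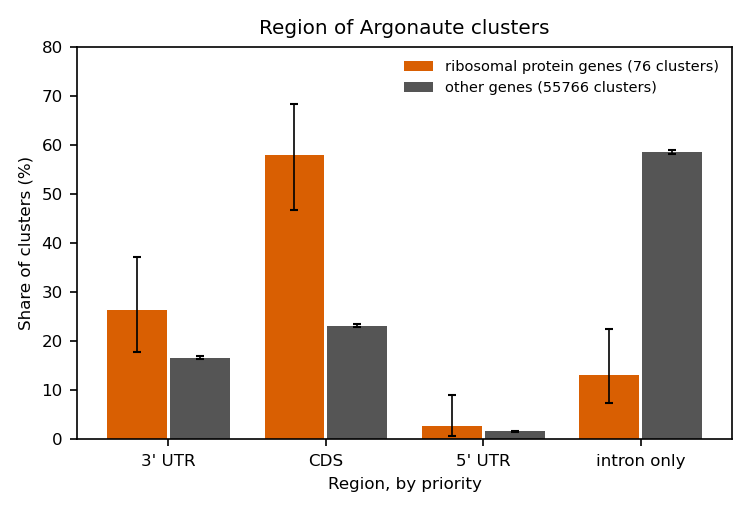
Share of clusters (vertical axis, percent) assigned to each region for the 76 clusters of ribosomal protein genes and the 55766 clusters of other genes, with 95% Wilson intervals as bars. CDS stands at 57.9% against 23.2%, and intron only at 13.2% against 58.6%.

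Few of these clusters named only 1 kind of region, and the coding share rests on that. Of the 56 clusters that name CDS, 50 also name an intron (89.3%, with a lower limit of 78.5), against 66.4% in other genes. Among the 20 clusters of ribosomal protein genes that name a single region, CDS took 15.0% and introns 50.0%, against 8.10% and 74.2% in other genes. The clusters that name both CDS and an intron were set against the exons of GENCODE M21. All 50 touched a single exon, 47 had most of their bases in it, and the median exonic part was 79.5% of the cluster (range 32.7 to 100). In other genes the median was 75.8%. In 13 of the 50 (26.0%) the cluster ran past both ends of its exon, close to the 24.5% in other genes. The intron named beside CDS was thus mostly a margin of the cluster, with a median of 18.5 bases before the exon and 4.5 after it, against 12 and 13 in other genes.

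Clusters over the ends of the reading frame were more frequent than in other genes. The stop codon lay under 12 of 64 exonic clusters (18.8%, 11.1 to 30.0), against 5.30%, and the start codon under 8 (12.5%, 6.47 to 22.8), against 3.19%. The mRNA start was covered by 2 of 64 (3.125%, 0.861 to 10.7), against 0.986%. Of 19 clusters named 3' UTR with bases in the transcript, 12 also named CDS (63.2%, 41.0 to 80.9), against 16.9%. The mRNAs are also short, with a median of 886.5 bases for the 84 annotated genes against 2578 for other protein-coding genes, so that a cluster of about 130 bases takes up more of each. The median position of a cluster along the mRNA was 49.7% from its start, against 44.6% in other genes. The Rps6 cluster downstream of the gene and the 5' UTR cluster of Rps19 have no base in the transcript used and are not among the 64.

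A circRNA identifier was attached to 5 of the 76 clusters (6.58%, 2.84 to 14.5), the 57-read Rpl7l1 cluster among them, against 15.9% in other genes. More than 1 gene was named for 4 clusters (5.26%, 2.07 to 12.8), against 0.927%. No cluster named a ribosomal protein gene as antisense.

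In depth the exonic clusters were close to those of other genes. The median was 20 reads per exonic cluster against 21. It was 19 against 21 in the 3' UTR and 20.5 against 21 in CDS. Over all regions it was 21 reads (quartiles 13 and 38) against 19 (13 and 29). Median width was 130.5 against 127 bases, and depth was 13.8 against 14.4 reads per 100 bases of cluster. The intron-only clusters stood apart, with a median of 40.5 reads (range 10 to 51) against 18, and 42.7 against 14.2 reads per 100 bases. At least 50 reads were held by 13.2% of the clusters (7.31 to 22.6), against 7.30% in other genes. Summed over a gene, the 44 members with an exonic cluster had a median of 27.5 exonic reads against 48. Per kb of mRNA the order turned. The 43 annotated genes with an exonic cluster had a median of 26.5 exonic reads per kb against 14.8. Their median mRNA lengths were 964 and 3618.5 bases. Since a listed cluster has at least 10 reads, the least possible value per kb is higher for a short mRNA. This difference can therefore not be told apart from that of length.

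**Figure D3:**
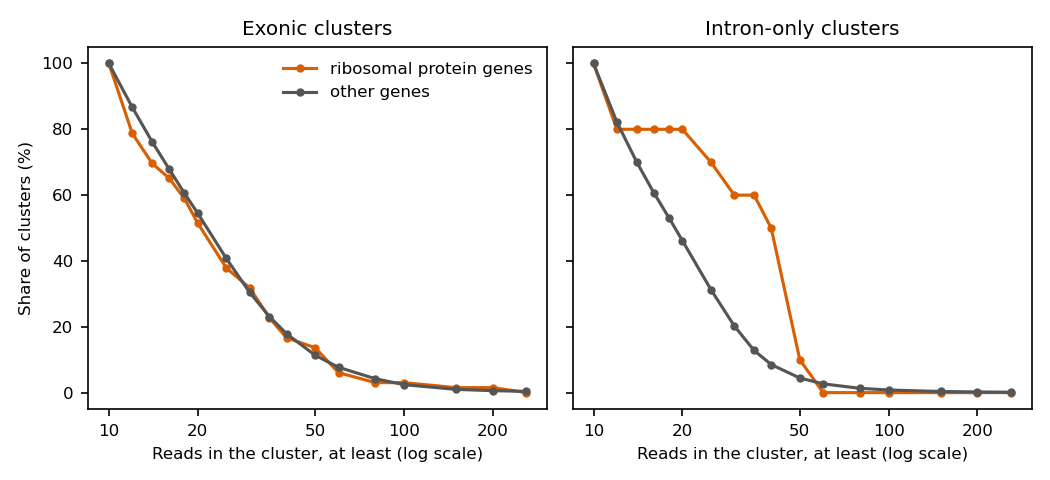
Share of clusters (vertical axis, percent) with at least the number of reads on the horizontal log axis, for exonic clusters (left) and intron-only clusters (right) of ribosomal protein genes and other genes. The exonic curves lie close together, and the intron curve of the 10 ribosomal protein clusters lies above the other from 14 to 50 reads.

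The sequence of these clusters is largely shared with other places in the genome. For each exonic cluster, the exonic stretches of 30 bases were looked up in the transcripts of genes at other loci. In 24 of 64 clusters (37.5%, 26.7 to 49.7) every such stretch was found elsewhere, against 0.922% of other genes' exonic clusters. At least 1 was found elsewhere in 53 (82.8%, 71.8 to 90.1), against 6.74%. The median cluster had 81.3% of its stretches elsewhere, against 0 in other genes. A read that lies wholly within 1 such stretch fits more than 1 locus. A longer read, or one that runs into the intron margin of a cluster, may fit only 1, and such reads were not examined. How reads that fit several loci were placed is not given in the sources used here, so the read counts of these genes are uncertain.

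The deepest coding clusters were among those wholly shared in their exonic part. Each stretch of the 257-read Rpl27a cluster was found at 1 or more of 11 other loci, Gm7536 among them. All stretches were also found elsewhere for the 61-read Rps4x, the 57-read Rps27a and the 55-read Rps6 cluster. The loci that share stretches include Gm9294 for Rps4x and the pseudogene Rps6-ps4 for Rps6. The 60-read Rps15 cluster had 42.2% of its stretches elsewhere. Both Rpl22 clusters and the deeper Rpl7l1 cluster had 0, and the 21-read Rpl7l1 cluster had 4%. The kinds were close in depth: the median was 21.5 reads in wholly shared clusters and 20 in the 11 with none shared.

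**Figure D4:**
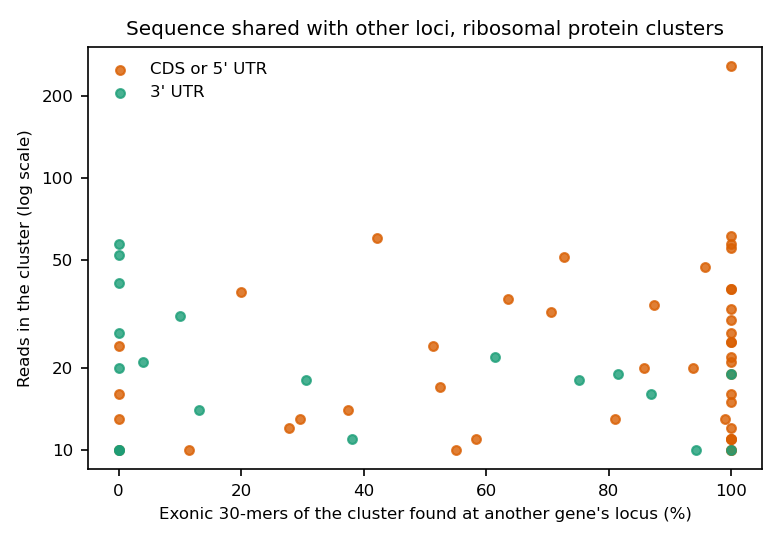
Reads in each exonic cluster of the ribosomal protein genes (vertical log axis) against the share of its exonic 30-base stretches found at another gene's locus (horizontal axis, percent); 1 point is 1 cluster, coloured by 3' UTR or CDS and 5' UTR. Clusters pile up at 100%, where the 257-read Rpl27a cluster is, while the deepest 3' UTR clusters shown, of Rpl7l1 and Rpl22, are at 0.

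Shared sequence also differed little between the annotated genes that were named and those that were not. The median share over the whole mRNA was 47.5% in the 47 named genes and 53.2% in the 37 others, and their mRNAs had median lengths of 964 and 805 bases. The median number of pseudogenes that carry the gene's name was 1 and 2. Across the 84 genes, the exonic read count had a Spearman coefficient of 0.23 with mRNA length, -0.05 with the shared part and -0.11 with the number of named pseudogenes. These are descriptions over genes that share the same pooled libraries, and all are weak.

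Of the 10 intron-only clusters, 4 lay over an annotated snoRNA gene on the same strand (40%, 16.8 to 68.7), against 29 of 32695, or 0.0887%, in other genes. The snoRNAs guide chemical changes of ribosomal RNA and are cut out of the host's introns. The Rps20 cluster of 51 reads covered 68 bases of Gm24016. The Rpl39 cluster of 47 reads covered 47 bases of Snora69, the Rpl4 cluster of 43 reads covered 34 bases of Gm23136 and the Rpl5 cluster of 38 reads covered 21 bases of Gm26387. Among the exonic clusters, the 39-read Rpl3 cluster reached over 65 bases of Gm22077. It was 1 of 66 (1.52%, 0.268 to 8.10), against 0.0390% in other genes. In all, 31 annotated snoRNA genes lie in 16 of the host genes and 5 of them were covered. The 4 intron clusters over a snoRNA had a median of 45 reads and the 6 others 25.5, among them the clusters of Rpl31 and Rps12 with 49 reads each. For those 4 clusters and the 39-read Rpl3 cluster, reads of the snoRNA and reads of the ribosomal protein transcript cannot be told apart.

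Seed matches were counted for 23 miRNA families, chosen as abundant in brain apart from miR-10, which has been reported to bind ribosomal protein mRNAs. A match is a 6-base stretch that pairs with bases 2 to 7 of the miRNA and has at least 1 base in the cluster. Families are named by 1 member here: miRNAs with the same 6-mer, such as those that share the seed of miR-103 or of miR-132, cannot be separated. At least 1 family matched 54 of 66 exonic clusters (81.8%, 70.9 to 89.3), against 73.1% in other genes, and the matches of all families came to 12.3 against 10.4 per kb of cluster. The median cluster matched 2 families, against 1 in other genes. In the intron-only clusters, 60% had a match against 63.9%. Of the 23 families, 12 were more frequent and 11 less frequent than in other genes, and in 21 the Wilson interval of the ribosomal protein genes held the other genes' share.

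miR-128 matched most, in 12 exonic clusters of 10 genes (18.2%, 10.7 to 29.1), against 12.1% in other genes. Among those genes were Rpl10a, Rpl27a, Rpl3, Rpl32, Rpl37a, Rps15a, Rps20, Rps27a and Rps6, and the Rpl27a site printed above lay 34.0% of the way along its cluster. miR-103 matched 11 clusters (16.7%, 9.57 to 27.4), against 9.56%, with the Rpl22 site among them. miR-15/16 matched 9 (13.6%, 7.34 to 23.9), against 10.7%. miR-9 matched 8 (12.1%, 6.27 to 22.1), against 6.82%, and miR-22 also matched 8, against 9.11%. miR-101 matched 7 (10.6%, 5.23 to 20.3), against 4.94%. Both miR-128 and miR-101 matched in 5 clusters, and both miR-103 and miR-15/16 in 4. Some of these pairs are overlapping bases of 1 site, as for miR-128 and miR-101 in the 3' UTR cluster of Rps15a. In the 12-read Rpl3 cluster the miR-128 and miR-101 matches lie apart.

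The largest differences above other genes were 7.10 percentage points for miR-103, 6.03 for miR-128 and 5.67 for miR-101. Over all exonic clusters, miR-103 and miR-101 are the 2 families whose interval lay above the other genes' share, for miR-103 with a lower limit of 9.57 against 9.56%. Below other genes, the differences were -3.92 points for miR-132, found in 1 cluster of Rpl7l1, -2.79 for miR-23, in Rpl24 and Rpl3, and -2.61 for miR-27. let-7 matched 1 cluster, of Rps13 (1.52% against 3.68%). miR-10 matched 3, of Rpl32, Rps23 and Rps29 (4.55%, 1.56 to 12.5, against 5.14%). With 66 clusters a family is counted in at most 12 of them, so differences of a few points were not detectable at this number.

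**Figure D5:**
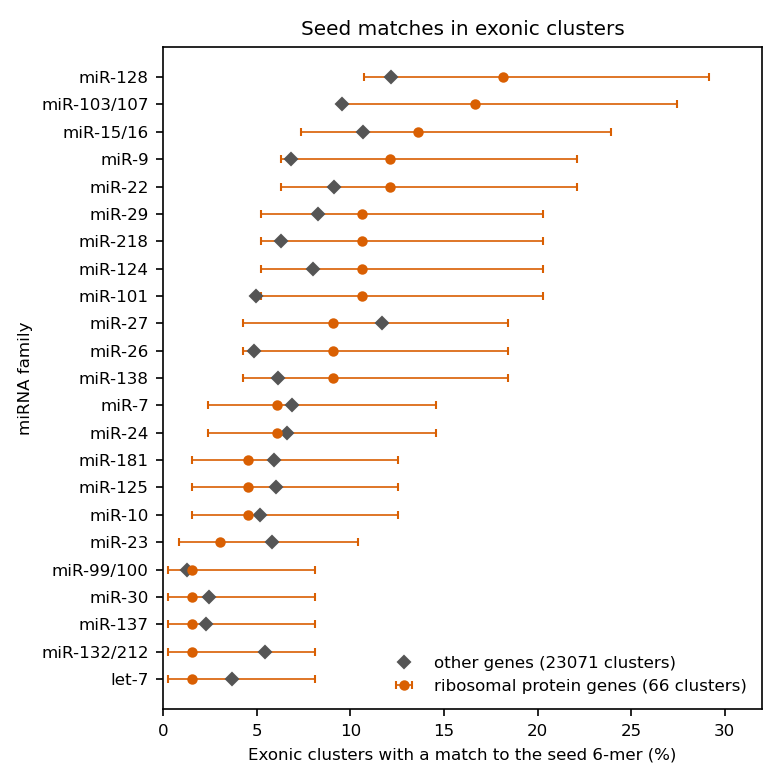
Share of exonic clusters (horizontal axis, percent) with a match to the seed 6-mer of each of 23 miRNA families, for the 66 clusters of ribosomal protein genes (circles, with 95% Wilson intervals) and the 23071 of other genes (diamonds). miR-128 stands highest at 18.2%, and the interval holds the diamond in 21 families.

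Of the matches whose surroundings could be read from transcripts, 89 lay in exons of 38 genes and 64 of these lay in coding exons. The 6-base match alone made up 40. An A opposite the first miRNA base was added in 18, pairing to base 8 in 23, and both in 8. The 8 longest included miR-128 in Rpl10a, miR-29 in Rps27a and miR-101 in Rpl3, all printed above, and miR-218 and miR-132 in the 21-read Rpl7l1 cluster. Of the 89, 59 lay in the inner 50% of the cluster's length, and the median position was 42.9% from the cluster's 5' end. Matches in the intron margins at the ends of clusters are not among the 89, which favours central positions. No such share was computed for other genes, so these positions show no preference for the middle.

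Other genes of translation gave a scale for these values. Rack1, a ribosomal protein outside the symbol rule, had 43 exonic reads. Cytosolic translation factors were named far more widely, in exons of 28 of 30 genes (93.3%, 78.7 to 98.2), with a median of 64 exonic reads and the most in Eif4g2, a translation initiation factor, with 659, and Eef1a2, the neuronal elongation factor, with 348. The 43 annotated ribosomal protein genes with an exonic cluster had a median of 32. Mitochondrial ribosomal proteins act in another compartment, and the median length of their mRNAs is 1302 bases against 886.5 for the cytosolic ones. They had exonic clusters in 28 of 78 genes (35.9%, 26.1 to 47.0), with a median of 23.5 reads. The most were in Mrps26 with 216 and Mrpl44 with 98. Per kb of mRNA over all genes of a list, exonic reads were 21.4 for the annotated ribosomal proteins, 34.4 for translation factors, 6.32 for mitochondrial ribosomal proteins and 10.6 for other protein-coding genes. The cytosolic ribosomal proteins thus lay between the factors they work with and their mitochondrial counterparts on this scale. So did the kinases and mTOR inputs, at 20.7, and the ribosome assembly factors, at 11.6, both described next. Among genes with an exonic cluster, the median per kb was 26.5 for ribosomal proteins, 29.3 for translation factors and 11.9 for mitochondrial ribosomal proteins.

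Ribosome assembly factors had exonic clusters in 11 of 16 genes, with a median of 22 reads, led by Ltv1 with 347 and Ncl with 179. The kinases and mTOR inputs that act on ribosomal proteins had them in 10 of 12, with a median of 73, led by Larp1, which binds the pyrimidine-rich start of ribosomal protein mRNAs, with 659, and Rps6ka3 with 240. As a check of the tissue, markers of excitatory forebrain neurons had exonic clusters in 6 of 6 genes, with Camk2a at 618 reads. Markers of astrocytes did so in 6 of 6, with Slc1a2 at 1105 reads, of oligodendrocytes in 4 of 5, with Mbp at 298, of interneurons in 2 of 5, of microglia in 3 of 5, of endothelial cells in 2 of 3 and of red blood cells in 2 of 4, the 2 alpha globin genes at 303 each. Ribosomal proteins are made in every cell type, and how much of their reads came from cells other than Camk2a neurons was not tested.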

How the data were processed

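BWA and mm10 are named per the submitters' processing notes. Not given in the sources used here are the BWA version, cluster calling, libraries pooled, use of controls, placement of reads that fit several loci and removal of duplicates. The table that the authors deposited gives a whole-number read count per cluster, of at least 10, with genes, circRNA identifiers and 1281 miRNA columns, whose deposited counts equal the 6-base seed matches in 792 of 792 comparisons made here. It holds 0 columns for single libraries, so depth per library is unknown and the planned edgeR contrast could not be run. Scripts (Python 3.11.15, pandas 2.3.3, numpy 2.4.6, scipy 1.17.1), tested on simulated data, used GENCODE M21 and RefSeq tables on the same assembly; all 48 symbols matched GENCODE. Intervals are 95% Wilson intervals. The named genes follow a rule: the 10 members with most exonic reads, up to 10 with 3' UTR and 5 with 5' UTR clusters, the 5 deepest clusters, the 3 with most intron-only reads, 2 genes of each list, and the leading families; other names were picked with their values in view. Members and lists were chosen with earlier results of these data known. The sequence of miR-124 and of stretches outside transcripts is not used here. Results for a few genes are not reported here. Alternatives were other region rules, a minimum of 20 reads, other gene sets and 50-base stretches, the last chosen after seeing the data.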

Additional observations from a re-analysis of the deposited data

Results flagged for a closer look

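Clusters also lay over pseudogenes of these genes, which apart from Rps4l are not among the genes taken above. Most have symbols of another form, while some, such as Rps3a2, have an allowed form but are not named under their clusters. Of 300 pseudogenes in GENCODE M21 that carry a ribosomal protein gene's name, 41 had a cluster on their own strand. Of such clusters, 48 named no ribosomal protein gene and held 1047 reads. No such share was computed for pseudogenes of other genes, so these counts show no excess over them. None of these 48 counts among the ribosomal protein clusters above. Some name another gene, such as Rab39 or Tecpr2, and so were counted with the clusters of other genes. They hold 10 reads, the least that the table lists, or more, and no control value exists for them. The deepest were Rps6-ps4 with 78 reads, Rpl21-ps8 with 66, Rps3a2 with 38 and Rps6-ps2 with 37, and Rpl3-ps1 had 4 clusters of 11 to 22 reads. By comparison, 1 cluster lay antisense to such a pseudogene. Whether these reads came from the pseudogenes or from the parent mRNAs was not tested, and pseudogenes with only a Gm number were not counted.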

How the results depend on the processing

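No paired analysis was possible because the table holds 1 value per cluster for the whole study and the results come from no test. For the same reason no replicate could be left out. The share of clusters by region depends on how clusters with several regions are counted. With every named region counted, CDS rose to 73.7% (25.8% in other genes), the 5' UTR to 14.5% (3.66%) and introns to 80.3% (77.2%), so the lower intron share was lost. With clusters of 1 region alone CDS fell to 15.0% (8.10%) and introns stood at 50.0% (74.2%). Within introns the median was 40.5 reads in place of 21. With clusters of at least 20 reads, 28.6% of annotated genes had an exonic cluster in place of 51.2%, because shallow clusters drop out. Without the 5' UTR the median exonic reads per gene were 23 in place of 27.5. Over all alternatives, 50 values moved by less than their interval and 22 by more, most of them single miRNA families counted in 20 clusters of the 3' UTR. With 50-base stretches, the shared part of the mRNA was 39.0% in named and 44.7% in other annotated genes. The minimum of 10 reads limits what can be said of genes without a cluster.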

Other observations

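Both Rps15 clusters name Bc1, a short neuronal noncoding RNA, as antisense. The table names Bc1 in this way for 61 clusters, while GENCODE M21 places the gene on another chromosome than Rps15.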
